A study of Mus musculus with 18 samples.

Results

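The erythroid transcription factors are described here across the development of the mouse liver. The set comprised 9 genes, Gata1, Zfpm1, Klf1, Tal1, Lyl1, Lmo2, Nfe2, Gfi1b and Bcl11a. A probe set, the group of short probes that reads 1 transcript on an Affymetrix array, was taken as a member when the array annotation gave it exactly 1 symbol and that symbol was 1 of these 9. The rule found 16 of 45037 probe sets, which stand for 9 of 18193 genes with a probe set of a single symbol. Bcl11a had 7 of them, Zfpm1 had 2, and each of the other genes had 1. All 9 genes passed the filter on low values, as did 14 of the 16 probe sets.

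The study profiled the liver as it forms, with adult liver and non-hepatic embryonic tissue as references. The 18 arrays held total RNA of CD-1 mice, an outbred stock with no engineered allele. Liver of 10-week-old females, normal by title and source name, was hybridised to 2 arrays, and the treatment text of both samples describes a hepatectomy. Embryonic liver was hybridised to 2 arrays a stage, daily between 10.5 and 14.5 days post conception (dpc) and once more at 16.5 dpc. The rest of the embryo, that is the embryo after removal of its liver, was hybridised to 1 array a stage at 14.5 dpc and at the first 3 stages. Pools of at least 5 embryos made up the embryonic samples, so differences between single embryos are averaged out. A whole organ holds many cell types, and in such bulk RNA fewer cells of a type and less RNA per cell cannot be told apart.

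In mid-gestation the liver is the main site of definitive red cell formation, before the bone marrow takes over. The first, primitive red cells arise in the yolk sac and circulate through every tissue. GATA1 is the zinc finger factor that drives red cell and megakaryocyte maturation, and FOG1, the product of Zfpm1, is its cofactor. KLF1 activates adult beta-globin and the genes of the red cell membrane. TAL1 and its paralog LYL1 are basic helix-loop-helix factors that bind DNA with E proteins, and LMO2 bridges them to GATA factors through LDB1. NF-E2, whose large subunit is encoded by Nfe2, pairs with small Maf proteins. GFI1B and BCL11A are zinc finger repressors, and BCL11A silences embryonic and fetal globin genes. BCL11A is also known from developing neurons and lymphocytes, and TAL1 and LMO2 from endothelium.

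The genes lie apart in the genome, with coordinates of build GRCm38.p6 as listed by RefSeq. Gata1 spans positions 7959260 to 7976663 of chromosome X, Klf1 84901982 to 84905291 of chromosome 8, Tal1 115056426 to 115071755 of chromosome 4 and Gfi1b 28609450 to 28621982 of chromosome 2. Zfpm1 spans 122281856 to 122337862 and Lyl1 84701423 to 84704716, both on chromosome 8. Lmo2 spans 103957903 to 103981878 of chromosome 2, Nfe2 103248212 to 103258403 of chromosome 15 and Bcl11a 24076564 to 24173558 of chromosome 11.

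GATA factors bind the letters AGATAA or TGATAA. Promoter windows of 300 bases, running from 250 bases before a start site to 50 after it, were given by RefSeq for 7 of the 9 genes, in 8 windows. For Klf1, Gfi1b and the first window of Tal1 that site is the outer end of the gene span given above, and for the other 5 windows it lies inside the span. One of these GATA motifs was present on either strand in 3 of the 8 windows, against 18.61% of all 32851 windows of that length. The 3 are shown because GATA1, whose own gene is a member, binds these letters. Each is written on the strand of its gene, 5′ to 3′, with the GATA motif or its reverse complement in capitals.
Klf1, chr8:84901732-84902031, plus strand: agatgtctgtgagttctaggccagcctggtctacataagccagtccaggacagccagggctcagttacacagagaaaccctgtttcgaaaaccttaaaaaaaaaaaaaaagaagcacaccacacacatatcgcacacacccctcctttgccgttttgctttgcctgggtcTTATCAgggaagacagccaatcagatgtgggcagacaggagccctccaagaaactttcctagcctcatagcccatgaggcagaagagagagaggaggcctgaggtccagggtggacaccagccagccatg
Tal1, chr4:115056176-115056475, plus strand: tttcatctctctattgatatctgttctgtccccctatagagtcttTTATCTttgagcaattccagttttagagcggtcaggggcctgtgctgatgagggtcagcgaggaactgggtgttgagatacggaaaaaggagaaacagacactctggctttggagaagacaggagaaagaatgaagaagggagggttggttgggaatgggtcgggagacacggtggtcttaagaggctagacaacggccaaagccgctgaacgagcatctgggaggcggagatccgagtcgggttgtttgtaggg
Gfi1b, chr2:28621933-28622232, minus strand: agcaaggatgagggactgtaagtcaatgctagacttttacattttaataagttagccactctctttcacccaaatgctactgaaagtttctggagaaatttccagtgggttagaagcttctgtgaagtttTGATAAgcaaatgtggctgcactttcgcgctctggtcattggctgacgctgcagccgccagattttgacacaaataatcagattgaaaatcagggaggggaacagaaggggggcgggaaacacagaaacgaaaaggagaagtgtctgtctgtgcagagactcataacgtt

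The motif in the Klf1 window is TGATAA on the opposite strand, its first base 80 bases before the start site (position -80). The Tal1 window holds AGATAA on the opposite strand at position -205, and the Gfi1b window holds TGATAA on the gene's own strand at position -120. The E-box CANNTG, bound by TAL1 and LYL1 dimers, was in 6 of the 8 windows, against 72.31% of all windows. The letters CCNCNCCC, which KLF1 binds, were in 6 of 8, against 49.47% of all windows, with overlapping matches on both strands counted. The NF-E2 letters TGAGTCA were in 0 of 8, against 5.202% of all windows. These are matches of letters in short windows, and no binding was measured.

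The deposited intensities are on a linear scale, and the arrays differed in form before any comparison. On the 14 liver arrays 1216 to 1535 values lay below 0 and the array medians were 69.7 to 79.5. On the 4 rest-of-embryo arrays no value was below 0, 35 to 41 were exactly 0, and the medians were 91.9 to 107. Replicate arrays of 1 stage correlated over all genes with an r of 0.948 to 0.980 in embryonic liver. The 3′ to 5′ signal ratio of Gapdh was 2.82 on replicate 1 of 10.5 dpc, against 0.744 to 0.886 on the other embryonic liver arrays. Alb, which encodes albumin, read 956 to 8941 in embryonic liver, and Afp, its fetal relative, read 7.60 to 13.4 in adult liver and 4525 to 6574 in embryonic liver. Heart muscle markers summed to 14977 to 25406 at 10.5 dpc and 4275 to 12068 at 12.5 dpc, against 848 to 1697 at the other embryonic stages. No value is compared between genes, because probe sets differ in how brightly they read.

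Over the whole embryonic course, 8 of the 9 genes rose in the liver between 10.5 and 16.5 dpc, and Bcl11a came just short of the size threshold. A gene was called when its adjusted p was under 0.05 and its difference was at least 1 on the log2 scale, in limma's moderated test over the 14 liver arrays with Benjamini-Hochberg adjustment over all 14125 genes tested. Of all genes, 10.4% were called higher at 16.5 dpc. The median log2 difference was 2.23 over the 9 genes and 0.05 over all genes. On neither array of 16.5 dpc did any of the 9 read as low as on an array of 10.5 dpc, which held for 35.8% of all genes.

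Gata1 (probe set 1449232_at) read 331 and 399 at 10.5, 1015 and 961 at 11.5, 1377 and 1337 at 12.5, 1478 and 1365 at 13.5, 1426 and 1517 at 14.5, and 1514 and 1495 at 16.5 dpc. The level was low on both first arrays, had more than doubled on both arrays by the next day, and overlapped between neighbouring stages from 12.5 dpc on. At 16.5 dpc it was 4.14-fold that of 10.5 dpc (log2 difference 2.05, SE 0.11, limma adjusted p = 4.72e-07). Zfpm1, read by its brighter probe set 1451046_at, gave 515 and 609.9 at 10.5, 1128 and 1044 at 11.5, 1402 and 1438 at 12.5, 1635 and 1754 at 13.5, 1636 and 1639 at 14.5, and 1818 and 1920.0 at 16.5 dpc. Both 16.5 dpc arrays lay above every earlier array, and the stages 13.5 and 14.5 dpc overlapped. The log2 difference of 16.5 dpc from 10.5 dpc was 1.74 (SE 0.12, limma adjusted p = 1.58e-06), or 3.33-fold.

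Klf1 (1418600_at) read 339.8 and 345 at 10.5, 1803 and 1358 at 11.5, 2710.3 and 2585 at 12.5, 3076 and 2948 at 13.5, 3144 and 3045 at 14.5, and 3269 and 3382 at 16.5 dpc. The 2 arrays of 10.5 dpc were low and close to each other, those of 11.5 dpc lay far apart, and the stages from 12.5 dpc on were all high. Klf1 rose 9.71-fold between 10.5 and 16.5 dpc (log2 difference 3.28, SE 0.24, limma adjusted p = 3.27e-06). Nfe2 (1452001_at) read 151 and 159 at 10.5, 441 and 386 at 11.5, 1197 and 1119 at 12.5, 1303 and 1464 at 13.5, 1646 and 1602 at 14.5, and 1652 and 1427 at 16.5 dpc. Its arrays stepped up without overlap at each stage through 14.5 dpc, and those of 16.5 dpc overlapped with both stages before them. The rise was 9.90-fold (log2 difference 3.31, SE 0.12, limma adjusted p = 5.96e-08).

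The genes of the TAL1 complex rose together. Tal1 (1449389_at) read 223 and 203 at 10.5, 775 and 667 at 11.5, 1509 and 1369 at 12.5, 1577 and 1599 at 13.5, 1764 and 1888 at 14.5, and 1678 and 1512 at 16.5 dpc, with the 14.5 dpc arrays highest. Lyl1 (1419120_at), its paralog, read 271 and 321 at 10.5, 674 and 689 at 11.5, 1020.4 and 1014 at 12.5, 926 and 1029.7 at 13.5, 1103 and 1107 at 14.5, and 1079 and 1184 at 16.5 dpc. Stages 12.5 and 13.5 dpc overlapped for Lyl1, and so did 14.5 and 16.5 dpc. Lmo2 (1454086_a_at), the bridging partner, read 473 and 590.5 at 10.5, 1420.4 and 1283 at 11.5, 1929 and 1787 at 12.5, 2265 and 2303 at 13.5, 2324 and 2218 at 14.5, and 2522 and 2419 at 16.5 dpc, with both 16.5 dpc arrays above all earlier ones. The log2 differences of 16.5 dpc from 10.5 dpc were 2.90 for Tal1 (SE 0.12, adjusted p = 1.12e-07), 1.94 for Lyl1 (SE 0.21, adjusted p = 3.78e-05) and 2.23 for Lmo2 (SE 0.14, adjusted p = 1.14e-06), all by limma.

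Of the repressors, Gfi1b (1420399_at) read 60.9 and 121 at 10.5, 489 and 412 at 11.5, 561 and 497 at 12.5, 655 and 655 at 13.5, 655 and 674 at 14.5, and 567 and 509 at 16.5 dpc. Its 10.5 dpc arrays differed by about as much as the lower of them read, and its 13.5 and 14.5 dpc arrays stood above those of 16.5 dpc. The log2 difference of 16.5 dpc from 10.5 dpc was 2.65 (SE 0.25, limma adjusted p = 1.49e-05), or 6.26-fold. Bcl11a, by its brightest probe set 1419406_a_at, read 307 and 319 at 10.5, 652 and 739 at 11.5, 682 and 591 at 12.5, 564 and 690.4 at 13.5, 590.3 and 611 at 14.5, and 605 and 628 at 16.5 dpc. Both 10.5 dpc arrays were the lowest, the 11.5 dpc mean was the highest, and all stages from 11.5 dpc on overlapped with their neighbours in level. The log2 difference of 16.5 dpc from 10.5 dpc was 0.98 (SE 0.15, limma adjusted p = 5.59e-04), under the size threshold of 1. Leaving out replicate 2 of 10.5 dpc or replicate 1 of 16.5 dpc put it over the threshold, at 1.01 in both cases.

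**Figure D1:**
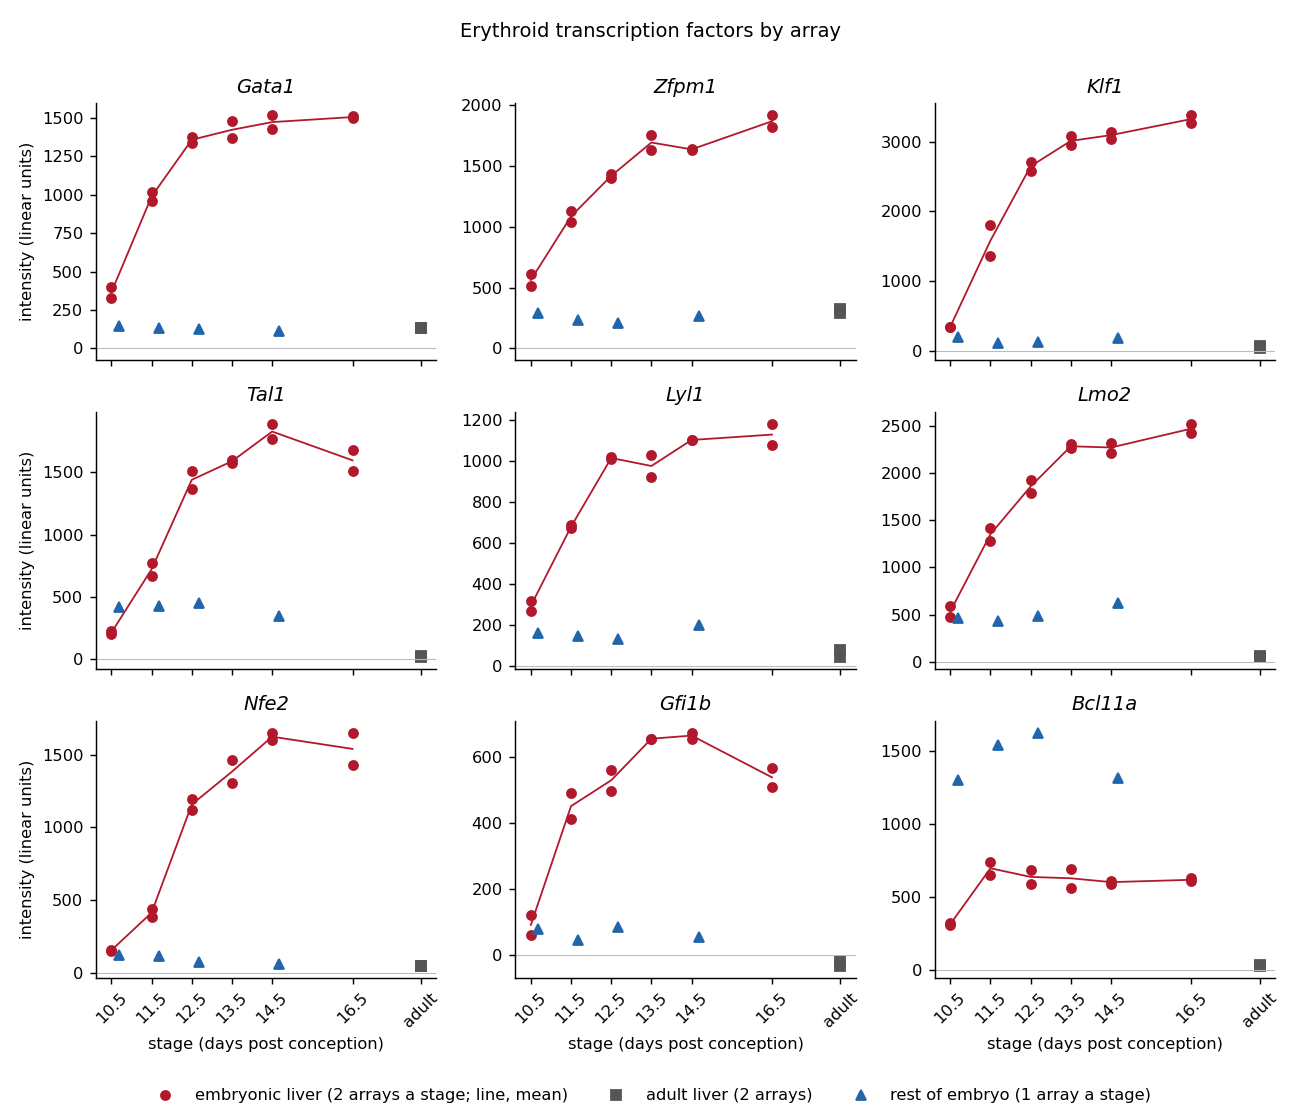
Intensity (linear units, vertical axes with separate scales) of each of the 9 genes against stage in days post conception, with adult liver at the right. Circles are the 2 embryonic liver arrays of a stage with a line through their mean, squares the 2 adult liver arrays and triangles the single rest-of-embryo arrays; Gata1 reads 1514 and 1495 on the liver arrays of 16.5 dpc, against 331 and 399 on those of 10.5 dpc.

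Most of the rise took place between 10.5 and 12.5 dpc. Between 10.5 and 11.5 dpc 8 of the 9 genes rose, where 2.97% of all genes were called higher. The log2 differences of 11.5 from 10.5 dpc ran from 0.95 for Zfpm1, which missed the size threshold with a limma adjusted p of 5.55e-04, to 2.39 for Gfi1b (adjusted p = 2.16e-04). Klf1 rose by 2.19 (adjusted p = 3.44e-04), Tal1 by 1.76 (adjusted p = 1.66e-05), Gata1 by 1.44 (adjusted p = 3.93e-05) and Nfe2 by 1.41 (adjusted p = 5.56e-05). Lmo2 rose by 1.35, Lyl1 by 1.21 and Bcl11a by 1.15, with adjusted p-values of 2.09e-04, 3.70e-03 and 9.83e-04. Without replicate 2 of either stage Zfpm1 was over the size threshold, at 1.07 and 1.01. With the mean over its probe sets it passed both thresholds, at 1.40. The Bcl11a call was lost with the mean over its probe sets, where the difference was 0.82.

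From 11.5 to 12.5 dpc only Nfe2 passed both thresholds, at 1.49 on the log2 scale (SE 0.12, limma adjusted p = 1.14e-04), beside 2.68% of all genes called higher. Tal1 gave 0.999 (SE 0.12, adjusted p = 7.68e-04), just under the size threshold, and was called without replicate 1 of 11.5 dpc (1.11) or replicate 2 of 12.5 dpc (1.07). The other 7 genes gave -0.13 to 0.76, with Gata1 at 0.46 (limma adjusted p = 0.0418), under the size threshold. By unadjusted limma p under 0.05, 7 of the 9 genes passed at this step, beside 2294 of all 14125 genes. In the 3 later steps none of the 9 was called in either direction by limma, where 0.0850%, 0.0566% and 0.0354% of all genes were. At an unadjusted p under 0.05, 0 of the 9 passed in each of these steps, beside 6.56%, 4.85% and 6.24% of all genes, so the count is near that background. Their log2 differences ran from -0.06 to 0.31 between 12.5 and 13.5 dpc, from -0.05 to 0.23 between 13.5 and 14.5 dpc and from -0.31 to 0.19 between 14.5 and 16.5 dpc. In the F test over all embryonic stages 9 of 9 genes were called, beside 19.6% of all genes. These comparisons share arrays with each other and with the one over the whole course.

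**Figure D2:**
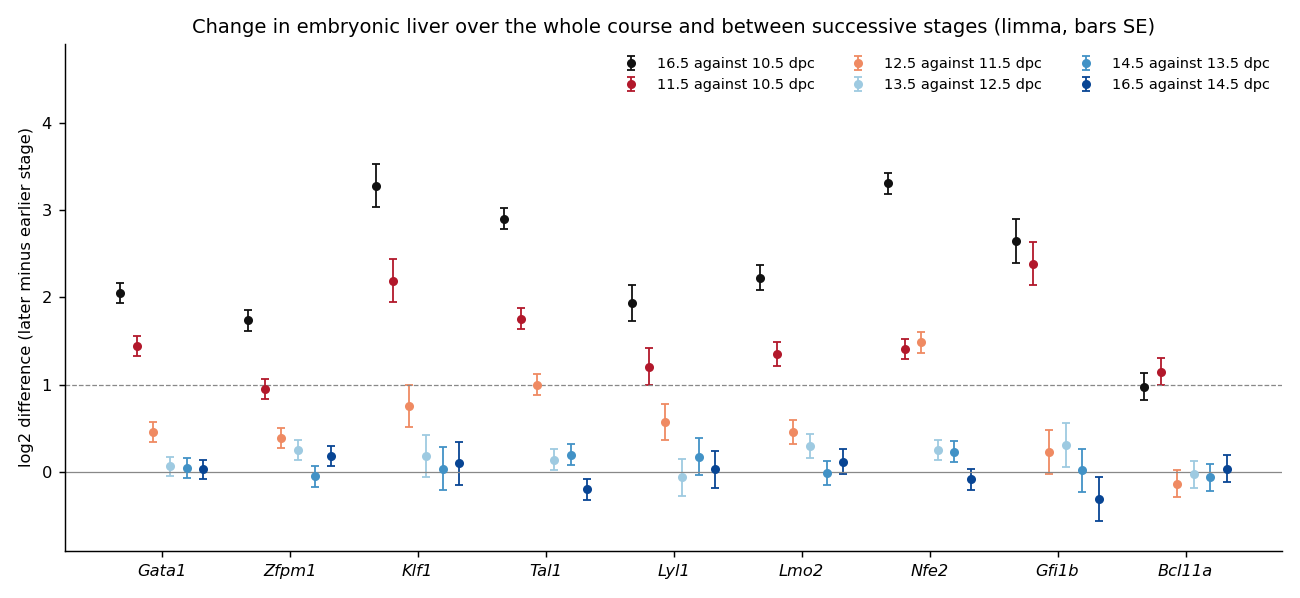
Log2 difference, later minus earlier stage, in embryonic liver for each gene from limma, with the standard error as bars and the size threshold of 1 as the dashed line. The step between 10.5 and 11.5 dpc exceeds 1 for 8 genes, the step between 11.5 and 12.5 dpc exceeds 1 for Nfe2 alone, and all later steps lie between -0.31 and 0.31.

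The genes differed in how far along they were at each stage. Nfe2 stood at 10.1% of its 16.5 dpc level at 10.5 dpc, 26.8% at 11.5 dpc, 75.2% at 12.5 dpc and 89.9% at 13.5 dpc. Klf1 stood at 10.3%, 47.5%, 79.6% and 90.6% of its 16.5 dpc level at the same stages. For Tal1 the shares were 13.4%, 45.2%, 90.2% and 99.5%, and for Gata1 24.3%, 65.7%, 90.2% and 94.5%. Gfi1b was already at 83.8% at 11.5 dpc, having been at 16.9% a day earlier, and Bcl11a was at 50.7% and then 112.8%. Zfpm1, Lmo2 and Lyl1 stood at 54.7% to 60.2% of their last embryonic level at 11.5 dpc. On the log2 scale, 42.6% of the Nfe2 rise and 90.2% of the Gfi1b rise had taken place by 11.5 dpc, and these shares were not tested against each other.

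The 10.5 dpc group carries the array with the high Gapdh ratio and the highest heart marker sums in liver. Without replicate 1 of 10.5 dpc, the 8 genes called over the whole course and the 8 called at the first step kept their calls, and Bcl11a over the course and Zfpm1 at the first step stayed under the size threshold. The log2 differences were then 0.95 to 3.27 for 16.5 dpc and 0.83 to 2.18 for 11.5 dpc, and the largest shift was 0.49, for Gfi1b. With all arrays of 10.5 and 12.5 dpc left out and 11.5 dpc as the early stage, 3 of the 9 genes were called higher at 16.5 dpc, Nfe2 at 1.90, Tal1 at 1.15 and Klf1 at 1.09. The others were then at -0.17 for Bcl11a, 0.26 for Gfi1b, 0.61 for Gata1, 0.73 for Lyl1, 0.78 for Zfpm1 and 0.87 for Lmo2. Of 15 heart muscle markers 13 were lower at 16.5 than at 10.5 dpc, beside 986 of all 14125 genes. The median of these markers was -3.48 on the log2 scale. How much of the low 10.5 dpc levels goes with the heart share was not tested.

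Read by the brightest probe set, every one of the 9 genes had its lowest mean among the liver groups in adult liver. The Bcl11a probe set 1447335_x_at differed, with a mean of 64.7 at 10.5 dpc and 84.8 in adult liver, and these arrays overlapped. The other tested Bcl11a probe sets were lowest in adult liver. By the brightest probe set all 9 genes fell between 16.5 dpc and adult liver, where 22.8% of all genes were called lower, and the groups overlapped for none. Of all genes, 48.5% read lower on both adult arrays than on either 16.5 dpc array. The median log2 difference was -4.44 over the 9 genes, against -0.24 over all genes. Against the mean of all embryonic stages, all 9 were again lower in adult liver, beside 23.7% of all genes.

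Klf1 read 61.3 and 31.8 in adult liver, against 3269 and 3382 at 16.5 dpc. It was 75.3-fold lower (log2 difference -6.23, limma adjusted p = 6.21e-09), and the log2 difference ran from -6.71 to -5.76 over all settings tried. Tal1 read 16.3 and 27.5 in adult liver, against 1678 and 1512 at 16.5 dpc, with 1 adult array below the floor of 24.8 to which low values were raised before the test. Its log2 difference was -5.93 (limma adjusted p = 1.17e-10), and ran from -6.23 to -4.86 over all settings tried. Lmo2 read 59.6 and 47.8 in adult liver, against 2522 and 2419 at 16.5 dpc, a difference of -5.53 (limma adjusted p = 3.77e-10).

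Both adult arrays of Gfi1b were below 0, at -17.7 and -33.3, so its level is known only to lie under the floor, and it was at least 21.65-fold lower than at 16.5 dpc. Values at the floor add no spread to the fit, so the standard errors and adjusted p-values of Gfi1b and Tal1 in adult liver are too small. Nfe2 read 47.4 and 49.2 in adult liver, 31.8-fold lower than at 16.5 dpc, and Bcl11a read 35.5 and 27.0, 19.9-fold lower. The log2 difference of Bcl11a ran from -4.51 to -1.88 over all settings tried. Lyl1, at 45.4 and 78.9 in adult liver, was 18.9-fold lower.

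By the brightest probe set of each gene, Gata1 and its cofactor gene gave the smaller differences. Gata1 read 131 and 134 in adult liver, 11.3-fold lower than at 16.5 dpc (log2 difference -3.50, limma adjusted p = 1.66e-09). Zfpm1 read 322 and 289 in adult liver, 6.12-fold lower than at 16.5 dpc (log2 difference -2.61, limma adjusted p = 1.62e-08). Its second probe set, 1423603_at, read 25.8 and 34.2 in adult liver, against 353 and 413 at 16.5 dpc. No detection call was used here, so whether these adult readings lie above background was not tested. Endothelial markers, from cells that also use TAL1 and LMO2, summed to 1908 to 2064 in adult liver and 1893 to 1987 at 16.5 dpc.

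Genes that these factors are known to activate followed a similar course. Of 29 measured erythroid target genes 25 rose between 10.5 and 16.5 dpc and none fell, beside 10.4% of all genes called higher. The median log2 difference of the list was 3.39, and Hba-a1, Cited2, Add2 and Tspan33, named after their values were seen, were not called. Trim10 rose by 4.97, and the blood group genes Rhd and Kel rose by 4.73 and 4.65 on the log2 scale. At the first step 22 of 29 rose, beside 2.97% of all genes. The largest differences were those of the adhesion gene Icam4 at 3.16, Ermap at 2.63 and Rhag at 2.62. At the second step, between 11.5 and 12.5 dpc, 18 of 29 rose, beside 2.68% of all genes. The median of the targets was 1.24, while that of the 9 factors was 0.46. E2f2, a cell cycle regulator, rose by 2.73, Alas2, the first enzyme of erythroid heme synthesis, by 2.60 and Dmtn, a membrane skeleton gene, by 2.22. In adult liver 26 of 29 were lower than at 16.5 dpc, beside 22.8% of all genes. Hemgn was among the 26, at least 163.1-fold lower.

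The list of partners and cofactors of the 9 factors changed in both directions. Of 25 measured, 5 rose and 2 fell between 10.5 and 16.5 dpc, beside 1471 and 986 of all 14125 genes. The other 18 partners were not called, and the median log2 difference of the list was 0.16. Sox6, which works with BCL11A on globin genes, averaged 687 ± 74.6 at 16.5 dpc and 206 ± 41.1 at 10.5 dpc (SD, n = 2 each), a log2 difference of 1.75 (limma adjusted p = 3.34e-04). Mafk, a small Maf partner of NF-E2, rose by 1.63 (limma adjusted p = 4.52e-06), and Zbtb7a, another globin repressor, rose by 1.52 (limma adjusted p = 3.82e-04). Named after their values were seen, Mafg and Klf3 rose by 1.43 and 1.38, and Tcf12, an E protein gene, and Hdac2 gave -1.31 and -1.04. Ldb1, chosen likewise, read 316 and 274 at 16.5 dpc, against 54.8 on replicate 1 and 297.7 on replicate 2 of 10.5 dpc, and was not called (limma adjusted p = 0.124). In adult liver 18 of 25 partners were lower than at 16.5 dpc and none was higher, beside 22.8% of all genes called lower. Myb, at least 21.01-fold lower, changed most.

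Primitive red cell globins ran against the factors. Of 3 measured, Hbb-bh1 and Hba-x fell between 10.5 and 16.5 dpc, with log2 differences of -3.42 and -2.20 (limma adjusted p = 3.95e-05 and 5.58e-05), and Hbb-y gave -0.41. Their summed intensity was 17504 to 17619 at 10.5 dpc, 14232 to 14371 at 11.5 dpc and 7982 to 12897 at 12.5 dpc. It was 6452 to 6614 at 13.5 dpc, lowest among embryonic stages at 14.5 dpc with 4001 to 4636, and 5298 to 5344 at 16.5 dpc. In adult liver it was 61.4 to 115. Replicate 2 of 12.5 dpc read 2043 for Hbb-bh1, against 686 on replicate 1. On the same arrays Bcl11a, whose product represses embryonic globin genes, had its highest mean at 11.5 dpc by its brightest probe set. The highest liver mean was at 11.5 dpc for 1426552_a_at too, and at 12.5 dpc for 1457072_at, 1456632_at and 1447335_x_at.

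Other blood cells that use some of these factors were read by their markers on the same arrays. Of all genes, 2.97% were called higher between 10.5 and 11.5 dpc and 10.4% between 10.5 and 16.5 dpc. Megakaryocyte markers, whose genes GATA1, FOG1, TAL1, NF-E2 and GFI1B also control, rose in 9 of 14 cases between 10.5 and 11.5 dpc and in 4 of 14 between 10.5 and 16.5 dpc. Their summed intensity was 3572 to 3582 at 10.5 dpc, 9171 to 9967 at 11.5 dpc and 5365 to 5923 at 16.5 dpc, against 1213 to 1346 in adult liver. Ppbp, a platelet chemokine gene, rose by 2.76 between 10.5 and 16.5 dpc. Of 6 mast cell markers tested, Mcpt4 rose by 2.83 and Cpa3 fell by 1.19. Of 6 B lymphoid markers tested, Vpreb3 had the smallest limma adjusted p, 0.0199, at a log2 difference of 0.53, under the size threshold. Neutrophil granule markers rose in 10 of 10 cases, led by S100a9 at 6.43, and macrophage markers in 8 of 12, led by Cd5l at 5.44, an at least 43.45-fold rise. How much of each factor's level comes from these cells was not tested.

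Lists that mark other tissues moved as follows between 10.5 and 16.5 dpc, beside 1471 higher and 986 lower of all 14125 genes. Hepatocyte markers rose in 9 of 11 cases (median 2.36), and proliferation markers in 3 of 11 (median 0.49). Of 14 stem and progenitor regulators 4 fell, led by Hmga2 at -3.75, and none rose. Of 14 endothelial markers 2 rose and 2 fell, and of 11 neural markers 1 rose and 4 fell. The neural markers summed to 1636 to 1654 at 16.5 dpc and to 3000.1 to 3005 at 10.5 dpc.

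**Figure D3:**
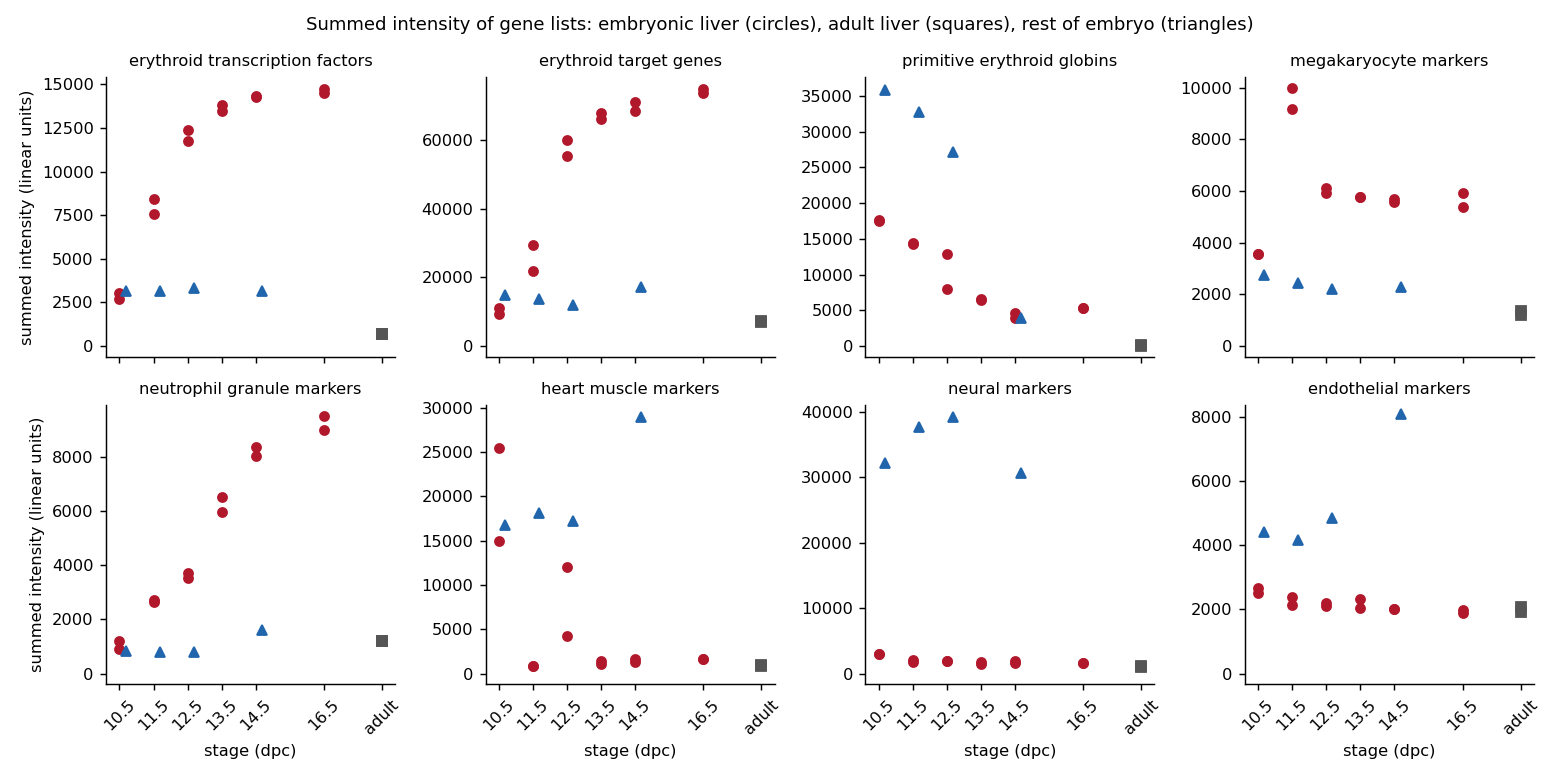
Summed intensity in linear units (vertical axes with separate scales) of the 9 factors and of 7 gene lists against stage, one point for each array, with embryonic liver as circles, adult liver as squares and the rest of the embryo as triangles. The sum of the 9 factors goes with that of their target genes in embryonic liver, where the targets sum to 73608 to 74893 at 16.5 dpc, against 9376 to 11038 at 10.5 dpc, while primitive globins run the other way and heart markers stand high at 10.5 and 12.5 dpc.

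Compared with the rest of the embryo at matched stages, 7 of the 9 genes were higher in liver, Tal1 was not called and Bcl11a was lower. Of all genes 65.1% were called, 13.95% higher and 51.2% lower in liver, by limma on 8 liver and 4 rest-of-embryo arrays with stage as a factor. The 2 tissues were deposited in different forms of values, which cannot be told apart from tissue. The median log2 difference over all genes was -1.04 on the values as deposited, -0.64 after centring each array on its median and -0.14 after quantile normalization, and the 9 genes are read against these shifts. Calls over all genes were 2078 higher and 7622 lower as deposited, 2540 and 5373 after centring, and 2888 and 2984 after quantile normalization.

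In the rest of the embryo Gata1 read 147 at 10.5, 130.3 at 11.5, 126 at 12.5, and 115 at 14.5 dpc, below all 8 liver arrays of these stages. Its log2 difference, liver minus rest, was 2.83 (SE 0.30, limma adjusted p = 4.86e-06). Zfpm1 read 289.6 at 10.5, 238 at 11.5, 212 at 12.5, and 264 at 14.5 dpc there and Lyl1 163 at 10.5, 149 at 11.5, 136 at 12.5, and 203 at 14.5 dpc, again below every matched liver array. Their differences were 2.13 (SE 0.23, limma adjusted p = 6.64e-06) and 2.10 (SE 0.25, limma adjusted p = 1.37e-05). Klf1 read 195 at 10.5, 108 at 11.5, 130.2 at 12.5, and 178 at 14.5 dpc in the rest of the embryo, a difference of 3.28 (SE 0.46, limma adjusted p = 4.54e-05).

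Nfe2 read 119.6 at 10.5, 113 at 11.5, 71.4 at 12.5, and 63.8 at 14.5 dpc in the rest of the embryo, below every matched liver array, with a log2 difference of 2.73 (SE 0.54, limma adjusted p = 6.59e-04). Gfi1b read 78.2 at 10.5, 44.7 at 11.5, 83.9 at 12.5, and 53.2 at 14.5 dpc there, and at 10.5 dpc that single array lay between both liver arrays. Its difference was 2.44 (SE 0.46, limma adjusted p = 4.78e-04). Lmo2 read 464 at 10.5, 433 at 11.5, 480.5 at 12.5, and 618 at 14.5 dpc, and its difference was 1.41 (SE 0.24, limma adjusted p = 1.97e-04). The 10.5 dpc liver arrays gave 473 and 590.5 for Lmo2, the lower of them close to 464 in deposited values. Ranked within each 10.5 dpc array, Lmo2 stood at percentiles 90.1 and 93.2 in liver and 79.9 in the rest of the embryo. Gfi1b stood at 46.4 and 63.8 against 45.8, so by rank the rest of the embryo lay below both liver arrays.

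Tal1 read 417 at 10.5, 425 at 11.5, 452 at 12.5, and 348 at 14.5 dpc in the rest of the embryo. In deposited values both liver arrays of 10.5 dpc, at 223 and 203, lay below that tissue, and from 11.5 dpc on both lay above. Ranked within each 10.5 dpc array, Tal1 stood at percentiles 78.6 and 76.9 in liver and 78.3 in the rest of the embryo. By rank the liver was thus not clearly lower at 10.5 dpc. The mean difference was 0.96 (SE 0.40, limma adjusted p = 0.0423), under the size threshold, 1.36 after median centring (adjusted p = 0.0102) and 1.99 after quantile normalization (adjusted p = 1.51e-03), both of them called. It was also called without either liver array or without the rest-of-embryo array of 10.5 dpc, at 1.08 to 1.61. Without the rest-of-embryo array of 14.5 dpc it was 0.49 (adjusted p = 0.237), and without that of 12.5 dpc 0.73 (adjusted p = 0.167). Endothelial markers were lower in liver for 10 of 15 genes, beside 51.2% of all genes, and their sums were 1998 to 2667 on the matched liver arrays, against 4171 to 8071 in the rest of the embryo. The part of endothelium in the Tal1 and Lmo2 readings was not tested.

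Bcl11a was the 1 gene of the 9 called lower in liver. Its liver arrays of the matched stages read 307 to 739, and those of the rest of the embryo 1300.1 at 10.5, 1538 at 11.5, 1624 at 12.5, and 1313 at 14.5 dpc, above all of them. The log2 difference was -1.42 (SE 0.14, limma adjusted p = 2.62e-06) as deposited and -1.03 (adjusted p = 5.78e-05) after median centring. After quantile normalization it was -0.18 (adjusted p = 0.288) and no longer called. Neural markers were lower in liver for 14 of 16 genes, beside 51.2% of all genes, and their median log2 difference was -4.79. They summed to 1644 to 3005 on the matched liver arrays, with 1 to 4 of the 16 at the floor, against 30642 to 39231 in the rest of the embryo, with none at the floor. Their part in the Bcl11a reading was not tested.

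**Figure D4:**
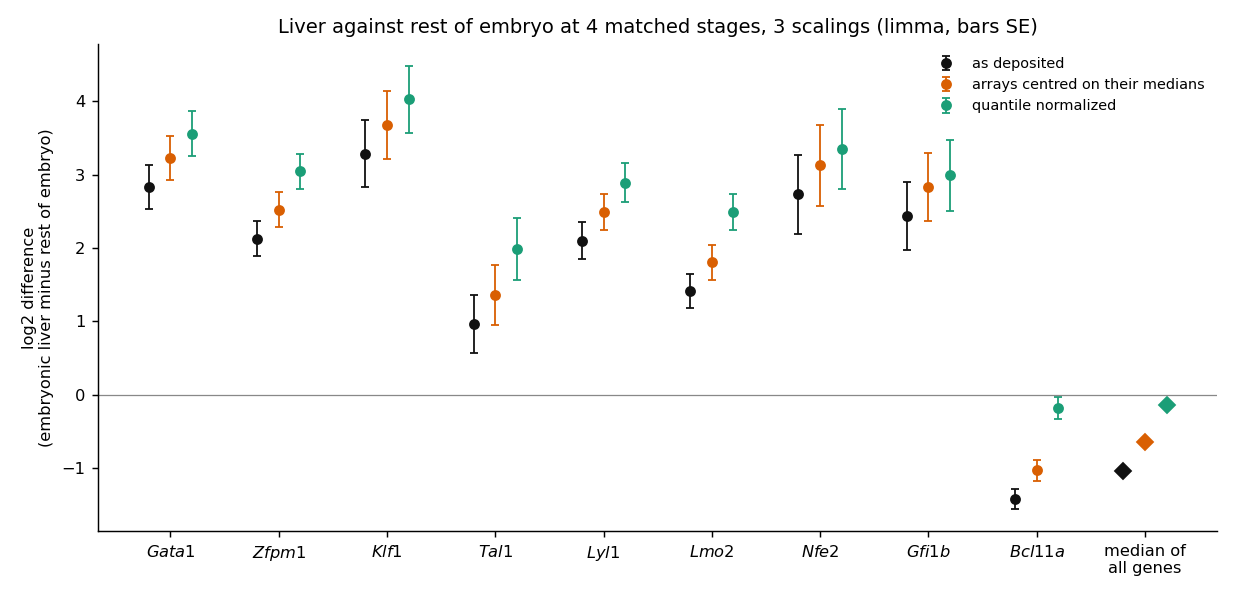
Log2 difference, embryonic liver minus rest of embryo at 4 matched stages, for each gene as deposited, after median centring and after quantile normalization (limma, bars are standard errors), with the median of all genes as diamonds. Of the 9 genes 8 lie above 0 under all 3 scalings, and Bcl11a goes from -1.42 as deposited to -0.18 after quantile normalization.

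The level rose faster with stage in liver than in the rest of the embryo for 4 of the 9 genes. A line was fitted through the 4 matched stages in each tissue, and 5.09% of all genes had a liver slope called higher than the slope in the rest of the embryo. Nfe2 changed by 0.83 log2 per day in liver and by -0.25 in the rest of the embryo, a difference of 1.08 (SE 0.18, limma adjusted p = 3.34e-03). For Tal1 the slopes were 0.73 in liver and -0.07 in the rest of the embryo, for Gata1 0.45 and -0.08, and for Zfpm1 0.35 and -0.02. The slope differences were 0.79 for Tal1 (SE 0.20, limma adjusted p = 0.0202), 0.53 for Gata1 (SE 0.16, limma adjusted p = 0.0465) and 0.38 for Zfpm1 (SE 0.11, limma adjusted p = 0.0434). Klf1, at 0.69, and Gfi1b, at 0.70, had larger differences than Gata1 with wider errors, and limma's adjusted p-values were 0.0881 and 0.110. None of the 4 calls was kept without the single 14.5 dpc array of the rest of the embryo, and without the one of 10.5 dpc Nfe2 alone was called.

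Among the other lists in the tissue comparison, 17 of 28 erythroid targets were higher in liver and 2 lower, with a median of 1.39. The shares over all genes, beside each of these lists, were 13.95% higher and 51.2% lower. All differences of these lists are on the values as deposited, where the median over all genes was -1.04. Primitive globins gave 1 gene lower in liver, Hbb-y at -1.46, and summed in the rest of the embryo to 35856 at 10.5 dpc, 32832 at 11.5 dpc, 27129 at 12.5 dpc and 3935 at 14.5 dpc. Of 25 partners 4 were higher in liver and 17 lower, beside 13.95% and 51.2% of all genes. Among the lower were the E protein genes Tcf12 at -2.62 and Tcf4 at -2.61. Runx1, a hematopoietic factor, was higher by 2.58. Gata2, the GATA factor of progenitors, had a smaller difference than these partners and is named in addition to them. It was lower in liver by 2.40 on the log2 scale, with 81.9 to 143 on the matched liver arrays and 450.0 to 737 in the rest of the embryo.

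Both genes with several probe sets were checked for agreement among them. The second probe set of Zfpm1, 1423603_at, read 353 and 413 at 16.5 dpc, against -27.1 and 133 at 10.5 dpc, a log2 difference of 2.73 after flooring, against 1.74 for the first. Of the 7 Bcl11a probe sets, 1453814_at and 1447334_at stayed under 41 on every array and were not tested.

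The Bcl11a probe set 1457072_at read 183 and 204 at 10.5, 365 and 369 at 11.5, 394 and 378 at 12.5, 287 and 336 at 13.5, 279.8 and 288 at 14.5, and 315 and 304 at 16.5 dpc, against 748 at 10.5, 1557 at 11.5, 1540.1 at 12.5, and 1051 at 14.5 dpc in the rest of the embryo. The order of tissues was that of the first probe set, and its 12.5 dpc mean was the highest of the liver stages. Its log2 difference of 16.5 from 10.5 dpc was 0.68, and those of 1456632_at, 1426552_a_at and 1447335_x_at were 0.72, 0.72 and 0.997, none of them called. At the first step 1426552_a_at gave 1.63 and was called, and the other 3 gave 0.68 to 0.93 and were not. For liver against the rest of the embryo the differences were -1.98, -1.78, -1.23 and -0.42, called for all but 1447335_x_at.

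**Figure D5:**
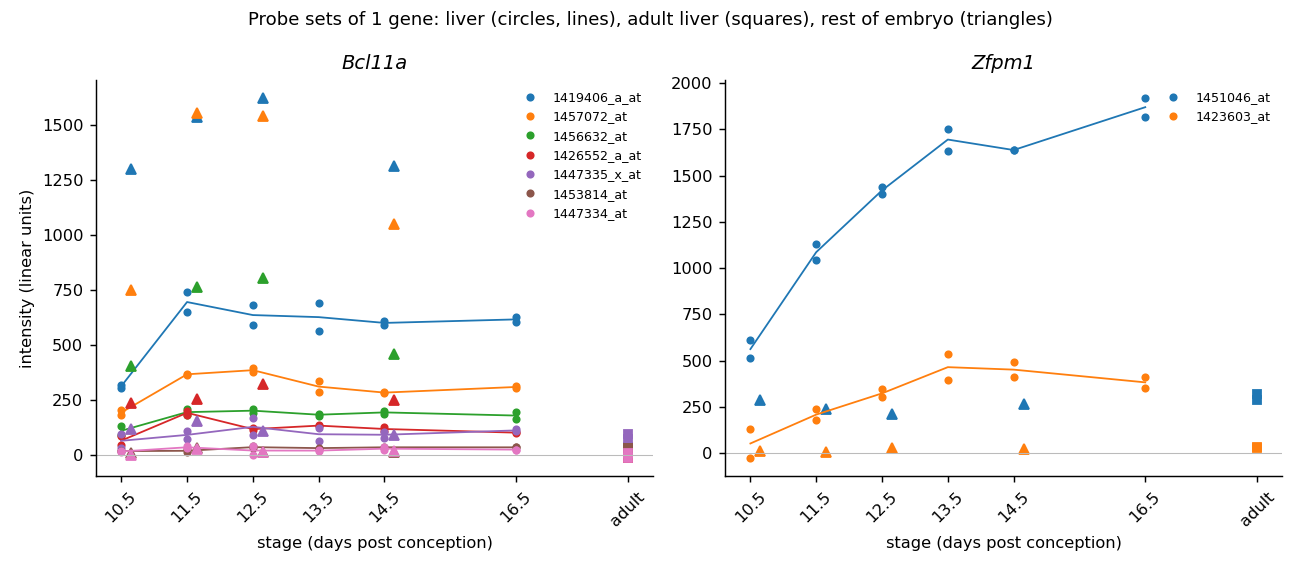
Intensity (linear units) of every probe set of Bcl11a and Zfpm1 against stage, with liver arrays as circles and lines through stage means, adult liver as squares and the rest of the embryo as triangles. The 4 brighter probe sets of Bcl11a read higher in the rest of the embryo than in liver of the same stage, and both probe sets of Zfpm1 read higher in liver from 11.5 dpc on.

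Among themselves the 8 factors other than Bcl11a correlated with r of 0.951 to 0.994 over the 14 liver arrays on the log2 scale, and Bcl11a correlated with them at 0.861 to 0.973. These arrays share their stages, and the low adult pair weighs on every r. Searching 5843 genes that varied among liver arrays, the course most like that of Gata1 belonged to Kcnn4, Rhag and Ermap (r = 0.998 each). For Klf1 the closest were Ermap (0.998), Kcnn4 (0.995) and Mns1 (0.995), and for Tal1 Hemgn (0.998), Acss1 (0.996) and Ermap (0.996). Nfe2 was closest to Ehbp1l1 (0.997), Slc25a37 (0.995) and Isca1 (0.995), and Gfi1b to Igsf1 (0.994), Slc14a1 (0.994) and Gata1 (0.992). Zfpm1 went with Klhl12 (0.997), Glrx5 (0.996) and Stx2 (0.995), Lmo2 with Rab8b (0.999), Slc38a5 (0.996) and Itga4 (0.995), and Lyl1 with Bdp1 (0.994), Tal1 (0.991) and Smim1 (0.991). Bcl11a went with Ppp2r1b (0.998), Ssna1 (0.997) and Ddx39a (0.995). Over the 12 embryonic arrays alone, the same 27 pairs had r of 0.940 to 0.999. The pairs were picked on the 14 arrays that include these 12, so these values are no independent check.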

How the data were processed

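Per the labels' protocols, Trizol was used to extract total RNA, and biotinylated cRNA made from it was hybridised to Affymetrix mouse arrays. The intensity values are those the authors deposited for all 18 arrays on a linear scale. Summarisation and scaling between arrays are not given in the sources used here. Groups were taken from the source names, because some age entries and titles contradict them. The labels call replicates biological and say no more, so p-values reflect only how far these samples spread, which may be technical.

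Of 45101 probe sets, 64 controls were left out, 34945 had 1 gene symbol, 932 several and 9160 none. The brightest probe set (by mean log2 over all arrays) stood for its gene. Intensities were raised to 24.8, the 20th percentile of all values, and log2 was taken. Genes above 78.0, the 50th percentile, on at least 2 arrays of a fit were tested, 14125 in liver and 14895 between tissues. The filter uses the high group too, so passing it is no evidence of change. Tests used limma 3.58.1 under R 4.3.3 (lmFit, eBayes with intensity trend, two-sided, Benjamini-Hochberg), a check on simulated data came first, and tables were made in Python 3.11.15 with pandas 2.3.3. Where all arrays of a group lay at the floor, the fold is a bound. The number of arrays limits precision.

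Members, 14 gene lists and motifs were chosen with earlier results of these data known. All 9 members are described. From each list the text names up to 3 called genes with the largest difference in a comparison, or, with no call, the gene of smallest adjusted p. The genes most like a member are the 3 with the highest r among genes with a log2 SD of at least 0.5 over the liver arrays. Alternatives were other floors, no filter, median centring, quantile normalization, the mean over probe sets, all probe sets, no trend, a replicate block, all 18 arrays in 1 fit, each array left out and the 10.5 and 12.5 dpc arrays left out. Promoter sequences are RefSeq's for GRCm38.p6.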

Additional observations from a re-analysis of the deposited data

Results flagged for a closer look

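The change per day in liver differed from that in the rest of the embryo, by limma's test of the difference itself, for 4 of the 9 genes. The differences, liver minus rest of embryo, were 1.08 log2 per day for Nfe2, 0.79 for Tal1, 0.53 for Gata1 and 0.38 for Zfpm1. Gata1 and Zfpm1 had adjusted p-values of 0.0465 and 0.0434, close to the threshold of 0.05, and after quantile normalization the Gata1 difference of 0.55 was not called (adjusted p = 0.0544). All 4 differences rest on 1 array a stage in the rest of the embryo. Without its 14.5 dpc array the adjusted p-values were 0.203 for Nfe2, 0.531 for Tal1, 0.523 for Gata1 and 0.289 for Zfpm1, and the differences were then 1.21, 0.67, 0.56 and 0.58. Without the 10.5 dpc array of that tissue they were 0.0741 for Tal1, 0.169 for Gata1 and 0.231 for Zfpm1, and Nfe2 was still called. Gata1 and Zfpm1 also lost their calls without replicate 2 of 10.5 dpc (adjusted p = 0.0917 and 0.0859), replicate 2 of 14.5 dpc (0.0554 and 0.0510) or the rest-of-embryo array of 11.5 dpc (0.0757 and 0.0650) or 12.5 dpc (0.0710 and 0.0614). Gata1 lost it without replicate 1 of 10.5 dpc (0.0513) or replicate 2 of 12.5 dpc (0.0536) as well.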

How the results depend on the processing

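Over single genes of the set, 2269 results kept their direction and call, 44 lost the call, 12 gained it and 24, uncalled before and after, changed sign. With the 10.5 and 12.5 dpc arrays left out Bcl11a was at -0.17 over the course, against 0.98. The other sign changes were in differences between successive stages, of 0.19 or less in size. For 12.5 against 11.5 dpc Bcl11a gave 0.014 with the mean over probe sets. For 13.5 against 12.5 dpc Bcl11a gave 0.022 with median centring and -0.17 to 0.12 with 1 array left out, and Lyl1 -0.13 to 0.018. For 14.5 against 13.5 dpc median centring gave -0.0065 for Klf1 and -0.025 for Gfi1b, quantile normalization 0.0048 for Lmo2 and the mean over probe sets 0.023 for Bcl11a. With 1 array left out the ranges were -0.0068 to 0.11 for Gata1, -0.099 to 0.0026 for Zfpm1, -0.042 to 0.025 for Lmo2 and -0.20 to 0.091 for Bcl11a. For 16.5 against 14.5 dpc median centring gave -0.013 for Gata1, -0.014 for Lyl1 and -0.0078 for Bcl11a, quantile normalization -0.019 for Gata1, and the mean over probe sets -0.024 for Zfpm1 and -0.018 for Bcl11a. With 1 array left out the ranges were -0.012 to 0.077 for Gata1, -0.035 to 0.099 for Lyl1 and -0.19 to 0.025 for Nfe2. Testing all probe sets as features raised the calls over all features to 4690 for 16.5 against 10.5 dpc (2457 over genes), 1463 for 11.5 against 10.5 dpc (799), 749 for 12.5 against 11.5 dpc (417), 5154 for any embryonic stage (2772), 9814 for adult against embryonic liver (5020), 9076 for adult against 16.5 dpc (4681), 19712 between tissues (9700) and 3436 for slopes (2091), and lowered those of 13.5 against 12.5 dpc to 3; more or fewer features were tested there. Without the 10.5 and 12.5 dpc arrays 3 of the 9 genes and 1221 of all were called over the course from 11.5 dpc, and 2 of the 9 and 1278 of all for any stage. The 12 calls of 13.5 against 12.5 dpc became 7 and 6 with floors at the 10th and 40th percentile, 1 without a filter and 0 with median centring, the replicate block or all 18 arrays, and 0 to 52 with 1 array left out. The 8 calls of 14.5 against 13.5 dpc became 5 with either floor, 13 with the mean over probe sets, 5 with the replicate block and 1 to 10 with 1 array left out. The 5 calls of 16.5 against 14.5 dpc became 3 to 8. For 11.5 against 10.5 dpc, leaving out 1 array gave 557 to 1723 calls, the most without replicate 2 of 10.5 dpc, and for 12.5 against 11.5 dpc 1 to 2 of the 9 genes. Between tissues quantile normalization gave 5872 calls. For slopes, 2 of the 9 genes were called without a filter, with the mean over probe sets, with all probe sets, with the replicate block and without trend, 3 after quantile normalization, where Gata1 lost its call (adjusted p = 0.0544), and 0 to 4 with 1 array left out, over all genes 44 to 2203, the fewest without the 14.5 dpc array of the rest of the embryo. The cause was not tested. Between groups, the differences of replicate 1 from replicate 2 had r of -0.280 to 0.197 over 21 pairs of groups, 3 of them over 0.1. The lowest r was between 10.5 and 16.5 dpc liver. The numbers were therefore not used to pair the samples in the main fit, and a batch shared under other numbers was not tested. The replicate block changed no call of the 9 genes other than the slopes of Gata1 and Zfpm1 (limma adjusted p = 0.0625 and 0.0586).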
